A study of Bos taurus with 22 samples.

Results

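APMAP (ENSBTAG00000004278) encodes adipocyte plasma membrane-associated protein, and its transcript abundance in circulating white blood cells is described here heifer by heifer. It is 1 of 27607 genes in the count table and 1 of the 13535 genes that passed the filter on low counts. The gene was chosen because of its difference between Sub-Fertile and Fertile heifers of these same animals, so that difference is given as a description, with no test. The p-value behind the choice also divides by the spread among heifers of 1 group, so a small spread is in part set by the choice. The contrasts that it did not use were the comparison of breeds and the interaction of breed with fertility, though their tests divide by that same spread.

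Peripheral white blood cells of 22 *Bos taurus* heifers were profiled by RNA sequencing, with 1 library per heifer, to ask which transcripts differ between heifers that conceive readily and heifers that do not. The 4 groups were Holstein Sub-Fertile (n = 5), Holstein Fertile (n = 5), Angus Sub-Fertile (n = 7) and Angus Fertile (n = 5). Holstein heifers were about 12 months old and were synchronized with progesterone for 5 days, and Angus heifers were about 14 months old and were synchronized for 7 days, so breed cannot be told apart from age and protocol. Holstein Sub-Fertile heifers needed 4 or more inseminations, and Angus Sub-Fertile heifers did not conceive after 2 inseminations and exposure to a bull, so the definition of Sub-Fertile also differed between breeds. Fertile heifers of both breeds became pregnant at the first insemination and calved. All heifers were sampled from blood as whole white blood cells, with no sorting. The buffy coat holds neutrophils, monocytes, lymphocytes, eosinophils and platelets together. In such bulk samples, fewer cells that carry a transcript and less transcript per cell cannot be told apart.

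APMAP is a glycoprotein anchored in the membrane by a single helix, with its catalytic part outside the cytoplasm. That part has arylesterase activity and the beta-propeller fold seen in the paraoxonases. The protein is best known from fat cells, where mouse APMAP has a role in adipocyte differentiation, and human APMAP also binds gamma-secretase and lowers the processing of amyloid precursor protein. These roles come from other species and tissues and are background to the values below.

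The gene lies on chromosome 13 of ARS-UCD1.2, from position 42586269 to 42615935 (Ensembl annotation), and is annotated as protein-coding, with a transcript of 2330 bases. In the RefSeq order of genes on ARS-UCD2.0, CST3, SYNDIG1 and CST7 precede it and ACSS1, VSX1 and ENTPD6 follow it. Among genes with a name here, only GDI2, a regulator of the recycling of Rab GTPases, lay within 1 Mb by the Ensembl coordinates, at 42926081 to 42955333. The log2 fold change of Sub-Fertile over Fertile heifers was -0.22 for APMAP (SE 0.055), against 0.07 for GDI2 (SE 0.038), which averaged 379 CPM.

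The total count per heifer ranged from 12182400 to 49228035, with a median of 23158374. Depth was not even between groups. The median total count was 17198877 in Holstein Sub-Fertile heifers, 17180109 in Holstein Fertile heifers, 28354518 in Angus Sub-Fertile heifers and 43397234 in Angus Fertile heifers. The count behind each APMAP value ran between 545 and 2662 fragments. CPM is the count of a gene per 1000000 counts of the heifer.

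The libraries were not equally distant from each other. In 8 pairs, each of 2 heifers, the heifers were nearest to each other over the genes with a mean CPM above 20. In these pairs the biological coefficient of variation was between 0.0378 and 0.0829, while every other pairing was at 0.0981 or above. The pairs crossed the groups: 6 joined a Sub-Fertile with a Fertile heifer and 4 joined a Holstein with an Angus heifer. Heifer 10 (Holstein Fertile) and heifer 18 (Angus Fertile), which form a close pair, also stood apart from the other heifers on the second principal component, at 12.5 and 12.8, against 3.87 or less in each of the others. The labels give no batch, and the part of these pairs in the values below was not tested beyond the fits that hold them as blocks or leave out heifers 10 and 18.

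APMAP transcript was lowest in Holstein Sub-Fertile heifers and highest in Angus Fertile heifers, with the other 2 groups between them. In Holstein Sub-Fertile heifers, heifers 1 to 5 had 37.0, 44.5, 40.3, 42.1 and 38.5 CPM, a mean of 40.5 ± 2.94 (SD, n = 5). In Holstein Fertile heifers, heifers 6 to 10 had 46.3, 56.3, 44.5, 45.4 and 56.8 CPM, a mean of 49.9 ± 6.14 (SD, n = 5). All 5 Holstein Sub-Fertile values lay below all 5 Holstein Fertile values, but the gap was narrow. Heifer 2, the highest Sub-Fertile one, stood at 44.511 CPM, against 44.528 CPM in heifer 8, the lowest Fertile one. The counting interval of heifer 2, 42.5 to 46.6 CPM (exact Poisson, 95%), lay inside that of heifer 8, 41.4 to 47.9 CPM. These intervals cover counting error only. On TMM-scaled values, which also divide by a factor for library composition, heifers 2 and 8 stood at 42.9 and 44.8 CPM.

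The 7 Angus Sub-Fertile heifers ranged from 44.3 to 54.7 CPM, with a median of 50.2 CPM and a mean of 49.6 ± 3.91 (SD, n = 7). Angus Fertile heifers, heifers 18 to 22, had 53.6, 56.0, 54.1, 55.2 and 55.4 CPM, a mean of 54.8 ± 0.988 (SD, n = 5). The Angus groups overlapped: in 2 of the 35 pairings of an Angus Sub-Fertile with an Angus Fertile heifer, the Sub-Fertile one was higher. Heifer 15 was the Angus Sub-Fertile heifer inside the range of the Fertile ones, at 54.7 CPM. On TMM-scaled values heifers 13 and 15, at 53.5 and 53.6 CPM, both lay above heifer 20, at 52.1 CPM. The overlap was therefore small in Angus and absent in Holstein.

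**Figure D1:**
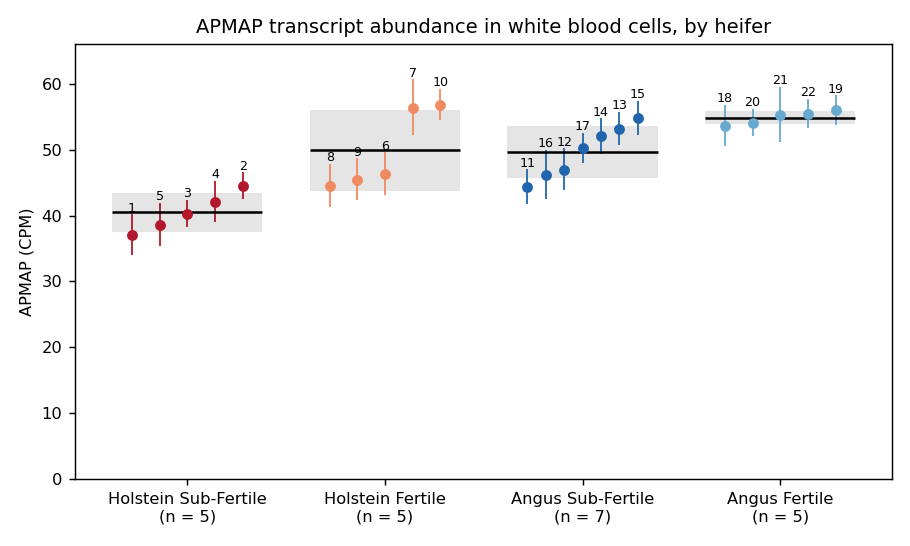
APMAP transcript abundance in CPM for each of the 22 heifers, numbered, in the 4 groups; vertical lines are 95% counting intervals, black lines are group means and grey bands are the mean ± SD. The 5 Holstein Sub-Fertile heifers lie between 37.0 and 44.5 CPM and the 5 Angus Fertile heifers between 53.6 and 56.0 CPM.

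A separation without overlap was not frequent among the genes tested. Sub-Fertile heifers lay below Fertile heifers without overlap for 126 of 13535 genes in Holstein (0.931%), of which APMAP is 1, and for 7 genes in Angus (0.0517%), of which it is not. No gene was separated this way in both breeds. Because the same contrast chose APMAP, nothing is read from its place among these genes.

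Over both breeds, APMAP averaged 45.8 ± 5.81 CPM in Sub-Fertile heifers (SD, n = 12) and 52.4 ± 4.91 CPM in Fertile heifers (SD, n = 10). The model with terms for breed and fertility gave a log2 fold change of -0.22 for Sub-Fertile over Fertile (SE 0.055), which is 1.16-fold lower in Sub-Fertile heifers. Within Holstein the log2 fold change was -0.30 (SE 0.0789) and within Angus it was -0.14 (SE 0.0723). Sub-Fertile heifers had less APMAP transcript in each breed. For all genes, the edgeR quasi-likelihood test for fertility called 0 genes at a Benjamini-Hochberg adjusted p under 0.05 (0%), and 354 genes had an unadjusted p under 0.05 (2.62%). The DESeq2 Wald test also called 0 genes at that adjusted p, with 529 at the unadjusted one.

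The interaction asks whether the difference in Holstein differed from that in Angus. It was -0.16 on the log2 scale (SE 0.107), with an unadjusted p of 0.158 and an adjusted p of 0.588 from the edgeR quasi-likelihood test, so the larger difference in Holstein was not distinguishable from that in Angus. It was -0.10 without heifer 10, which carried the highest APMAP value of all. Without heifer 7, the next highest, it was -0.11. Of all genes, 0 were called for the interaction at an adjusted p under 0.05 (0%) and 1408 at an unadjusted p under 0.05 (10.4%), and DESeq2 called 0 and 1657.

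Breed, the contrast that did not choose the gene, gave a difference of like size. APMAP averaged 45.2 ± 6.71 CPM in Holstein heifers (SD, n = 10) and 51.8 ± 3.99 CPM in Angus heifers (SD, n = 12), a log2 fold change of -0.22 for Holstein over Angus (SE 0.055) or 1.17-fold lower in Holstein. With an unadjusted p of 0.00057 it was 10th of the 13535 genes by the edgeR quasi-likelihood test for breed, but its adjusted p was 0.437 and the call was not made. No gene was called for breed by edgeR at an adjusted p under 0.05 (0%), whereas 1440 had an unadjusted p under 0.05 (10.6%). With the DESeq2 Wald test 10 genes were called for breed and 1751 had an unadjusted p under 0.05, and APMAP, at an adjusted p of 0.0656, was not among the 10. Over the other settings the adjusted p ran between 0.0656 and 0.99999.

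The breed difference was not the same for each phenotype in the raw means. The log2 ratio of mean CPM was -0.29 for Holstein Sub-Fertile over Angus Sub-Fertile heifers and -0.14 for Holstein Fertile over Angus Fertile heifers. The first of these groups overlapped in 1 of 35 pairings, heifer 2 above heifer 11, and in the second comparison a Holstein heifer was higher in 10 of 25 pairings. The middle groups, Holstein Fertile and Angus Sub-Fertile, had means of 49.9 and 49.6 CPM and did not differ beyond their spread, with the Holstein heifer higher in 18 of 35 pairings. Across the 22 heifers, 67.6% of the variance of log2 APMAP lay between the 4 groups and 32.4% within them. The choice of the gene by its fertility p-value favours a large share between groups, so this share is a description with no test.

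The close pairs gave a different view, because the heifers of such a pair are near to each other over the genes with a mean CPM above 20. Of the 6 pairs that joined a Sub-Fertile with a Fertile heifer, the Sub-Fertile one was lower in 5. The log2 ratio of Sub-Fertile over Fertile was -0.26 in heifers 5 and 6, -0.29 in heifers 16 and 7, 0.08 in heifers 12 and 8, and -0.06, -0.06 and -0.03 in the 3 Angus pairs (13 and 22, 14 and 20, 15 and 19). Their mean was -0.10 (SD 0.142, n = 6), with a median of -0.06. Heifers 16 and 7 and heifers 12 and 8 also differed in breed, so this mean does not isolate fertility. Of the 3 pairs that held a Holstein heifer, the Sub-Fertile heifer was lower in 2 and higher in 1 (heifers 12 and 8), and each of the Angus pairs differed little.

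For breed, the 4 pairs that joined a Holstein with an Angus heifer split evenly. The log2 ratio of Holstein over Angus was -0.26 in heifers 1 and 11, 0.29 in heifers 7 and 16, -0.08 in heifers 8 and 12, and 0.08 in heifers 10 and 18, with a mean of 0.0091 (SD 0.233, n = 4). In heifers 7 and 16 and in heifers 8 and 12 the Holstein heifer was Fertile and the Angus heifer Sub-Fertile. These pairs are also counted among the fertility pairs, so the mean does not isolate breed. Only heifers 1 and 11 and heifers 10 and 18 differed in breed and not in fertility. With the close pairs as blocks in the model, the fertility log2 fold change was -0.11 (SE 0.058) in place of -0.22. The breed log2 fold change with these blocks was -0.04 (SE 0.074; edgeR quasi-likelihood test, adjusted p = 0.99999). Both estimates were nearer to 0 with the blocks than without them. Heifers 2, 3, 4, 9, 17 and 21 were in no close pair and each formed a block alone. These heifers add nothing to the blocked estimates, so the blocked fit also rests on fewer animals. The source of the shift was not tested.

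**Figure D2:**
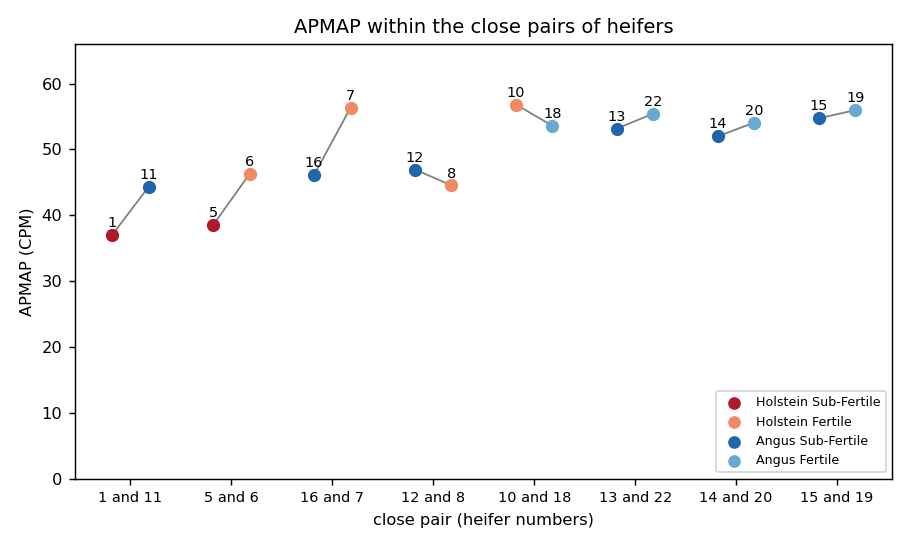
APMAP transcript abundance in CPM in the 8 close pairs of heifers, each pair joined by a line and coloured by group. In 5 of the 6 pairs of unlike fertility the Sub-Fertile heifer, drawn on the left, is lower, and the 3 Angus pairs on the right differ little.

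Heifers of a close pair differed less in APMAP than heifers at large, with a median absolute log2 difference of 0.0800 over the 8 close pairs, against 0.220 over the other 223 pairings. The 51 other pairings within 1 group had a median of 0.0829, close to that of the close pairs, which all cross groups. Genes of like abundance showed such likeness too. The ratio of the close to the other median was 0.363 for APMAP, against a median of 0.435 for 400 genes of like abundance, of which 255 had a larger ratio.

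The fertility and the breed difference kept their direction with each heifer left out. The fertility difference chose the gene, so its steadiness is a description. Where 1 heifer of a close pair is left out, its partner stays in the fit, so these fits cannot show dependence on a pair. Leaving out each heifer in turn gave a fertility log2 fold change between -0.23, without heifer 15, and -0.19, without heifer 10. Without heifers 10 and 18 together it was -0.20. The breed log2 fold change was between -0.25 and -0.20 over the 22 fits that left out 1 heifer, with adjusted p-values between 0.137 and 0.644 from edgeR.

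**Figure D3:**
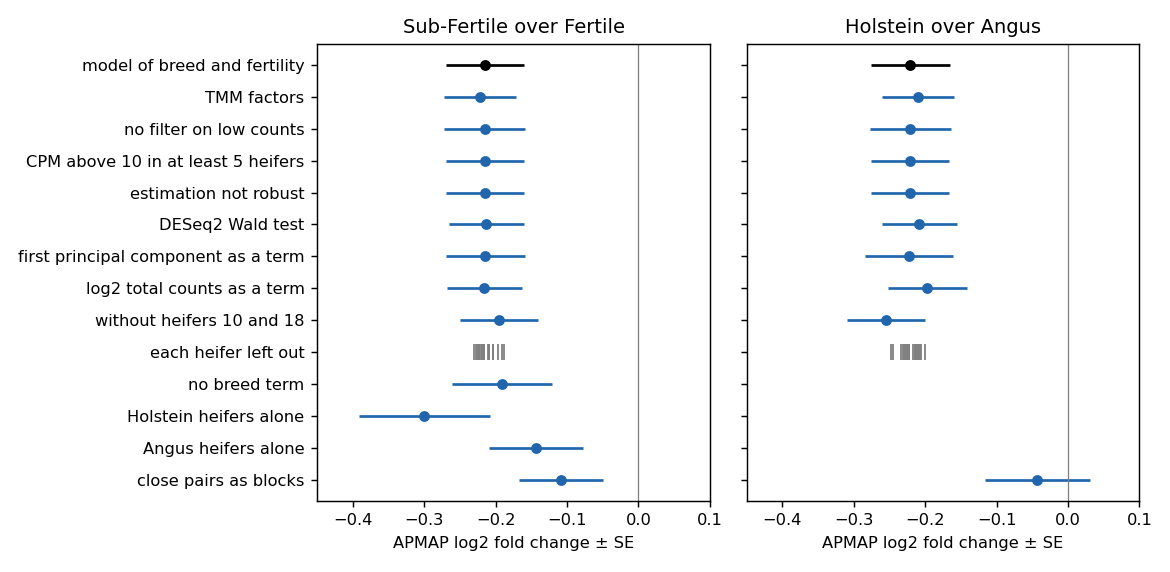
Log2 fold change of APMAP ± SE for Sub-Fertile over Fertile (left) and Holstein over Angus (right) in the model of breed and fertility (black) and under other settings; grey ticks are fits with 1 heifer left out. Both estimates lie near -0.22 except with close pairs as blocks, where they are -0.11 and -0.04, and in fits of Holstein alone (-0.30) or Angus alone (-0.14).

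In abundance APMAP was a gene of the middle to upper range. With a mean of 48.8 ± 6.25 CPM over all heifers (SD, n = 22), it was 4830th of 13535 genes, with 64.3% of the genes below it. Its rank within a heifer ran between 4137th and 5603rd. Per kilobase of transcript, where only the 1401 genes with a length here can be compared, it stood at 591st with 57.8% of these genes below it, against 570th by CPM. The named genes next above it were CIAO3, which serves iron-sulfur protein assembly, TM6SF1 and DGCR6L, each at 49.4 CPM. Next below it were USP33, a deubiquitinase, at 48.8 CPM, EIPR1, a protein of endosomal traffic, at 48.4 CPM and DIRAS2, a small GTPase, at 48.3 CPM. These levels are CPM, not per length, and name the position of APMAP only.

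The spread of APMAP among heifers of 1 group is part of the p-value that chose the gene, and is given as a description. The SD within groups was 0.116 on the log2 scale, a 1.08-fold spread, while the median of the 400 genes of like abundance was 0.163. Of these 400 genes 65 had a smaller SD. Of all genes tested, 11.7% had a smaller one. DIRAS2, near APMAP in level, had an SD of 0.35 within groups.

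The spread was not alike in the 4 groups. The coefficient of variation was 7.27% in Holstein Sub-Fertile heifers, 12.3% in Holstein Fertile heifers, 7.88% in Angus Sub-Fertile heifers and 1.80% in Angus Fertile heifers. Counting error alone gives 3.45%, 3.36%, 2.87% and 2.67% in these groups in the same order, so the spread of the Angus Fertile heifers in CPM by total counts lay within counting error. That small spread depended on the scaling. On TMM-scaled values the Angus Fertile heifers ran from 52.1 CPM (heifer 20) to 57.3 CPM (heifer 21), against 53.6 to 56.0 CPM by total counts. None of the 400 genes of like abundance had a smaller coefficient of variation in Angus Fertile heifers, where their median was 13.4%. In Holstein Fertile heifers 269 of the 400 genes varied less than APMAP. There the values fell into heifers 6, 8 and 9, between 44.5 and 46.3 CPM, and heifers 7 and 10, at 56.3 and 56.8 CPM. The differences in spread between groups were not tested.

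**Figure D4:**
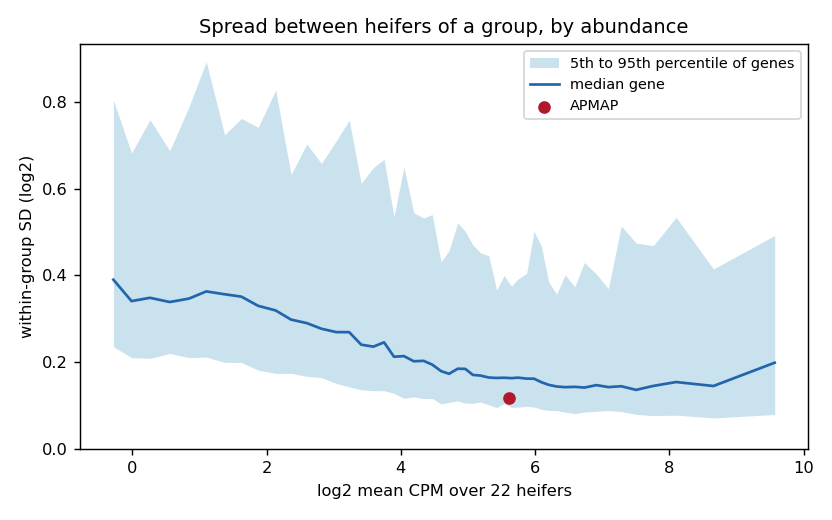
SD of log2 CPM between heifers of 1 group (vertical axis) against log2 mean CPM over 22 heifers, with the median gene as a line, the 5th to 95th percentile of genes as a band and APMAP as a red point. APMAP, at an SD of 0.116, lies below the median of genes of its abundance and inside the band.

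Blood cell makeup and depth were set beside APMAP over the 22 heifers after the 4 group means were removed from log2 values. Of the marker lists, neutrophils were measured by CSF3R, MMP9, TGM3 and QSOX1 (4 of 17 markers have a name here), B cells by BANK1 (1 of 13), platelets by ITGA2B and GP9 (2 of 14) and eosinophils and basophils by CCR3 and FCER1A (2 of 14). CSF3R, the receptor of granulocyte colony-stimulating factor, averaged 283 CPM, and BANK1, a B cell scaffold protein, averaged 352 CPM. Markers of monocytes, T cells, natural killer cells and red blood cells were not analysed here by name.

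The summed neutrophil markers ranged between 397 and 763 CPM in Holstein Sub-Fertile heifers, against 249 to 505 CPM in Holstein Fertile heifers, and between 355 and 709 CPM in Angus Sub-Fertile heifers, against 392 to 514 CPM in Angus Fertile heifers. BANK1 ranged between 342 and 512 CPM in Holstein Sub-Fertile, 238 and 445 CPM in Holstein Fertile, 265 and 378 CPM in Angus Sub-Fertile and 245 and 380 CPM in Angus Fertile heifers. Median BANK1 was 409, 386, 348 and 310 CPM in that order. BANK1 has its name from a table ordered by the fertility contrast, so nothing is read from the order of its medians beside APMAP. The ranges of the summed markers overlapped between all 4 groups in both lists. The summed platelet markers ranged between 33.8 and 47.2 CPM in Holstein Sub-Fertile, 37.5 and 73.1 CPM in Holstein Fertile, 33.8 and 50.6 CPM in Angus Sub-Fertile and 33.1 and 68.8 CPM in Angus Fertile heifers, and the eosinophil and basophil sums overlapped between all groups too.

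Single markers differed in direction within a list. The log2 fold change of Sub-Fertile over Fertile was 0.43 (SE 0.184) for CSF3R, 0.98 (SE 0.453) for TGM3, a transglutaminase, and 0.74 (SE 0.368) for MMP9, a gelatinase of neutrophil granules, against -0.18 (SE 0.0997) for QSOX1, a sulfhydryl oxidase, which made up 145 CPM of the neutrophil sum. It was 0.16 (SE 0.0993) for BANK1. For the platelet markers ITGA2B, an integrin chain, and GP9, a subunit of the receptor for von Willebrand factor, it was -0.28 (SE 0.122) and -0.63 (SE 0.318), the direction of APMAP. For CCR3, the eotaxin receptor, it was -0.32 (SE 0.180), and for FCER1A, a chain of the IgE receptor, 0.28 (SE 0.159). MMP9 and GP9 were low, at a mean of 2.13 and 2.42 CPM. ITGA2B, at a mean of 44.7 CPM, made up most of the platelet sum. None of the markers in these lists was called for fertility at an adjusted p under 0.05 by edgeR, which called 0 of all 13535 genes (0%). Their names too come from the table ordered by the fertility contrast. The part of these markers in the APMAP difference was not tested.

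Within groups, none of these measures moved with APMAP past the test. Pearson's r with APMAP was 0.11 for the neutrophil sum (permutation p = 0.622), -0.27 for BANK1 (permutation p = 0.228), 0.22 for the platelet sum (permutation p = 0.328) and 0.25 for the eosinophil and basophil sum (permutation p = 0.257). Spearman's rho was 0.11 (p = 0.619), -0.28 (p = 0.202), 0.25 (p = 0.259) and 0.25 (p = 0.261) by permutation in the same order. All were two-sided with 100000 resamples, and adjusted over 5 relations the p-values of r were between 0.411 and 0.622 for the 4 marker sums. Without the 2 heifers farthest from the median of each measure, r was 0.08 for neutrophils, -0.11 for BANK1, 0.21 for platelets and 0.18 for eosinophils and basophils. For BANK1 the heifers left out there were 10 and 18, and its r rested most on heifer 10. It was -0.02 without heifer 10 alone and -0.32 without heifer 18 alone.

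Depth had the closest relation of the 5. For APMAP CPM and log2 total counts, r was 0.43 (permutation p = 0.0502) and rho was 0.42 (permutation p = 0.0523), with adjusted p-values of 0.251 and 0.261, so the relation did not pass. Without the 2 heifers farthest from the median, heifers 10 and 21, r was 0.40. Leaving out heifer 7 alone made r 0.59 with an adjusted p of 0.0239, and leaving out heifer 10 made it 0.31. On TMM-scaled values, which divide by a factor for library composition, r was 0.15 (adjusted p = 0.620). The p-values take the heifers as independent, which the close pairs are not. With log2 total counts as a term in the model, the fertility log2 fold change was -0.22 and the breed log2 fold change was -0.20, against -0.22 for both without that term.

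The genes whose pattern over the heifers was most like that of APMAP were sought by Pearson's r of log2(CPM + 0.5) with the 4 group means removed, over 22 heifers. All points share library and depth, the genes were chosen by r, and r is therefore a description with no p. Over the 13534 other genes r had a median of 0.12, with a 5th percentile of -0.30 and a 95th percentile of 0.46. It was above 0.7 in 15 genes and below -0.7 in 1. Only 1228 of these genes have a name here, 1 of the 10 with the highest r, so those named are not the most alike of all. These names come from the head of a table ordered by the fertility contrast, so named genes tend to differ between Sub-Fertile and Fertile heifers, and nothing is read from the order of their group means beside that of APMAP.

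TMEM223, a protein of the mitochondrial inner membrane, had the highest r among named genes, at 0.75 (rho 0.74), and between 0.69 and 0.85 with 1 heifer left out. It is a low gene, at 8.29 ± 0.841 CPM in Holstein Sub-Fertile, 9.34 ± 0.958 CPM in Holstein Fertile, 8.56 ± 0.721 CPM in Angus Sub-Fertile and 9.27 ± 0.925 CPM in Angus Fertile heifers (SD, n = 5, 5, 7 and 5). RMND5B, a subunit of the CTLH ubiquitin ligase, had r = 0.71 (rho 0.74) and averaged 62.4 ± 1.82 CPM in Holstein Sub-Fertile, 65.7 ± 5.44 CPM in Holstein Fertile, 65.2 ± 5.06 CPM in Angus Sub-Fertile and 72.4 ± 5.25 CPM in Angus Fertile heifers (SD, same n).

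P2RY8, a G protein-coupled receptor of lymphocytes, had r = 0.68 (rho 0.67), and 0.82 with nothing removed. It averaged 15.7 ± 1.81 CPM in Holstein Sub-Fertile, 18.2 ± 1.86 CPM in Holstein Fertile, 17.6 ± 1.91 CPM in Angus Sub-Fertile and 20.1 ± 1.88 CPM in Angus Fertile heifers (SD, same n). Others were NUP85 of the nuclear pore (r = 0.67), YDJC (0.64), TOP3A, a DNA topoisomerase (0.61), KRTCAP2, a subunit of the oligosaccharyltransferase (0.61), CHST12, a chondroitin sulfotransferase (0.60), and GFER, a mitochondrial sulfhydryl oxidase (0.58). Some of these lose rank when pairs are not counted apart: with the close pairs averaged into 14 points, 4 of the 10 named genes stayed among the 10 highest, and r was 0.73 for TMEM223, 0.61 for RMND5B and 0.69 for P2RY8.

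At the other end, ACTR2, a subunit of the Arp2/3 complex that nucleates actin, had r = -0.63 (rho -0.63), between -0.73 and -0.54 with 1 heifer left out. ACTR2 averaged 569 ± 33.1 CPM in Holstein Sub-Fertile, 548 ± 46.0 CPM in Holstein Fertile, 532 ± 29.1 CPM in Angus Sub-Fertile and 486 ± 29.8 CPM in Angus Fertile heifers (SD, same n). PDCD4, an inhibitor of translation (r = -0.54), STYX, a pseudophosphatase (-0.53), ITM2C, a membrane protein that lowers amyloid precursor processing (-0.52), and RNF2, a Polycomb ubiquitin ligase (-0.50), followed. This order was not steady. With the close pairs averaged, r was -0.48 for ACTR2 and -0.30, -0.56, -0.61 and -0.38 for PDCD4, STYX, ITM2C and RNF2. On TMM-scaled values r was -0.55, -0.71, -0.51, -0.39 and -0.58 in the same order. GDI2, the neighbour on chromosome 13, had r = -0.32.

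**Figure D5:**
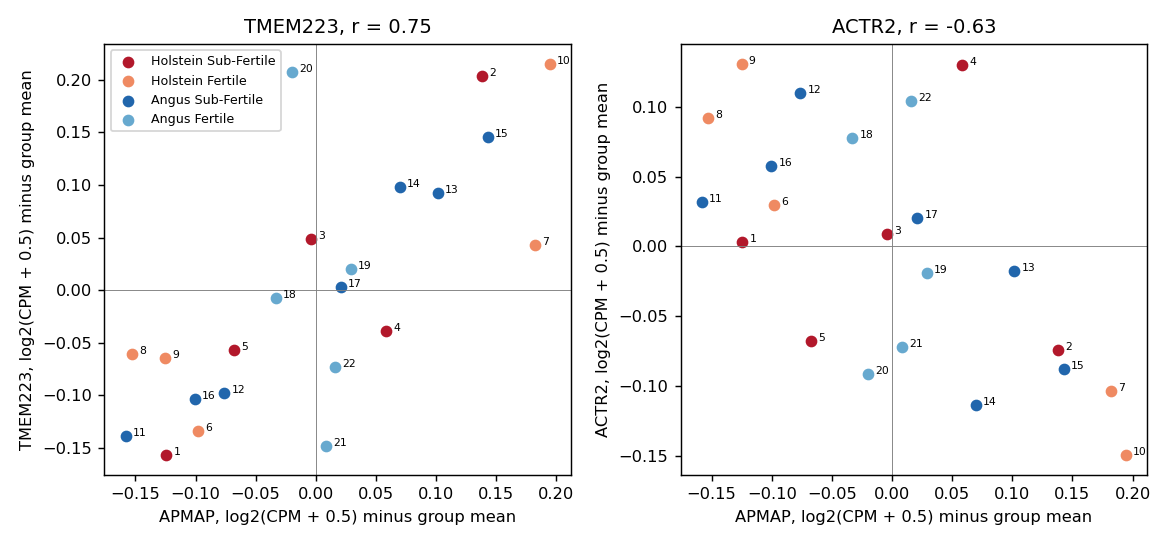
Log2(CPM + 0.5) minus the group mean of TMEM223 (left) and ACTR2 (right) against that of APMAP, 1 numbered point per heifer, coloured by group. TMEM223 rises along with APMAP (r = 0.75) and ACTR2 falls (r = -0.63), and heifers 7 and 10 lie at the right edge of both panels.

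Genes of amyloid precursor processing, adipocytes and lipid storage, antioxidant enzymes and esterases were looked at by list. These lists go by theme, and whether their members share a pathway with APMAP was not tested. The table gave a name for 1 of 15 genes of amyloid precursor processing, 2 of 23 genes of adipocyte differentiation and lipid storage, 5 of 23 antioxidant enzymes and 0 of 4 paraoxonases and related esterases. Names come from the head of a table ordered by the fertility contrast, so these counts and the fertility differences of the named members are descriptions and say nothing about the lists. None of these members was called for fertility or for breed at an adjusted p under 0.05 by edgeR. That test called 0 of all 13535 genes for each contrast (0%), so this says nothing particular to these members.

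ITM2C, the member of the amyloid list, averaged 1099 CPM in Holstein Sub-Fertile, 1060 CPM in Holstein Fertile, 1052 CPM in Angus Sub-Fertile and 935 CPM in Angus Fertile heifers, a fertility log2 fold change of 0.12 (SE 0.075). DGAT1, the enzyme of the last step of triglyceride synthesis, averaged 42.2 CPM in Holstein Sub-Fertile, 48.1 CPM in Holstein Fertile, 45.8 CPM in Angus Sub-Fertile and 52.6 CPM in Angus Fertile heifers, with a log2 fold change of -0.20 (SE 0.088). The r of DGAT1 with APMAP within groups was 0.29. FABP5, a fatty acid-binding protein, had a log2 fold change of -0.41 (SE 0.223) on low and scattered values, with a mean of 8.33 CPM. Among antioxidant enzymes, the log2 fold change was -0.12 (SE 0.059) for PRDX1, -0.10 (SE 0.051) for PRDX6, -0.11 (SE 0.062) for MSRB1 and -0.14 (SE 0.079) for TXN, and r with APMAP was between 0.02 for PRDX1 and 0.34 for MSRB1.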

How the data were processed

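White blood cell RNA of 22 heifers was sequenced by the authors from Illumina Stranded mRNA libraries. Reads were aligned to ARS-UCD1.2 with HISAT2, filtered with SAMtools and biobambam2 and counted per Ensembl gene with featureCounts. Neither tool versions nor the strand setting of the counting are given in the sources used here. The table deposited by the authors holds counts that are not normalized, for 27607 genes. In 4389 of them every heifer had a count of 0. Groups come from the labels, and whether libraries were separate in any other way is not stated. The p-values measure the spread between heifers taken as independent, which the close pairs are not. Only the fits with close pairs as blocks take the pairs into account.

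Following the authors' code, a gene was kept where 5 or more heifers exceeded a CPM of 1 (13535 genes), a rule in which the TMM factors cancel. That code also filters on FPKM and on gene biotype, and these steps were not applied here. edgeR 4.0.16 (R 4.3.3) fitted breed and fertility with total counts as library sizes and robust quasi-likelihood estimation, and p-values were adjusted by Benjamini-Hochberg. SE is the size of the log2 fold change over the square root of F. DESeq2 1.42.0, TMM factors, other filters, estimation that is not robust, blocks of close pairs, the first principal component or depth as a term and each heifer left out were alternatives. The edgeR and permutation scripts were tested on simulated data. Close pairs are mutually nearest heifers with a BCV under 0.5 times the median, over the genes with a mean CPM above 20, APMAP among them. Genes of like abundance are the 400 nearest in log2 mean CPM. Permutation tests used Python 3.11.15, numpy 2.4.6 and scipy 1.17.1. Total counts ranged from 12182400 to 49228035, which gives a 95% counting interval (exact Poisson) for each APMAP value.

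Names came from the annotation columns of a supplementary table and cover 1229 of the genes tested. The named genes were APMAP, the members of 13 gene lists (18 of 195 symbols have a name; up to 4 per list by mean CPM, and any with an unadjusted fertility p under 0.05), the nearest genes on its chromosome, the 10 named genes with the highest and the 5 with the lowest r with APMAP, and the 3 named genes above and below it in abundance. Of the 10 genes with the highest r, 1 is not reported here. The gene and the lists were chosen with earlier results of these data known. Genotypes and plasma proteins were not analysed here.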

Additional observations from a re-analysis of the deposited data

Results flagged for a closer look

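Among the genes named beside APMAP, 80 groups of 5 to 7 heifers were checked for a heifer far from the others, and chance alone gives about 1 in 20. There were 2 such values. NUP85 was 83.871 CPM in heifer 10, against 64.5 to 67.1 CPM for the lowest and the median Holstein Fertile heifer, and GFER was 16.895 CPM in heifer 5, below a median of 21.7 CPM in Holstein Sub-Fertile heifers. APMAP itself had no such heifer in any group.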

How the results depend on the processing

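The fertility log2 fold change of APMAP kept its direction under all 12 alternatives (-0.30 to -0.11) and with each heifer left out (-0.23 to -0.19). The breed difference kept its direction under 9 alternatives (-0.25 to -0.04) and passed an adjusted p under 0.05 in none. The interaction ran from -0.18 to -0.16 under 5 alternatives and from -0.19 to -0.10 with 1 heifer left out, with adjusted p-values of 0.451 to 0.741. With the DESeq2 Wald test 10 genes were called for breed, against 0 with edgeR, and no alternative called a gene for fertility or the interaction. Per kilobase, 57.8% of the 1401 genes with a length here lay below APMAP, against 59.3% of the same genes by CPM. Over all 13535 genes it was 64.3% by CPM.

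The list of genes most like APMAP was less steady. Of the 10 named genes with the highest r, 3 stayed with nothing removed, 5 without heifers 10 and 18, 4 with close pairs averaged and 6 on TMM-scaled values. With 1 heifer left out, 5 to 9 stayed, and it was 5 without heifer 7 or heifer 10 and 6 without heifer 13, 16 or 18. The cause was not tested. The r of APMAP with depth ran from 0.31 to 0.59 with 1 heifer left out, and passed the test without heifer 7. With 1 heifer left out, r ran from -0.07 to 0.24 for the neutrophil sum, -0.38 to -0.02 for BANK1, 0.12 to 0.40 for the platelet sum and 0.11 to 0.37 for the eosinophil and basophil sum. Standardized or TMM-scaled marker values gave r between -0.48 and -0.27 for BANK1, with adjusted p-values of 0.117 to 0.517.

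A ratio to reference genes was not run, since 1 of 15 has a name here. The labels give each heifer its own number, so no pairing comes from the design, and the blocks of close pairs were found in the counts themselves. Depth limits each APMAP value to a counting error of 1.94% to 4.28%.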
